A study of Mus musculus with 16 samples.

Results

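Stab1, Stab2, Lyve1, Fcgr2b, Clec4g, Oit3, Cdh5, Pecam1, Kdr and Tek are 10 marker genes of liver sinusoidal endothelial cells. They were chosen by name, with earlier results of these data known. For each, the array probe set that carries this gene symbol alone was taken, and where a gene had several such probe sets, the one with the highest mean level. All 10 were found among 19938 named genes. Only Clec4g had a further probe set. Its other probe set read 6.63 to 7.16 on the 16 arrays, and the levels below are those of the brighter one.

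Total RNA from whole liver of 16 adult mice was hybridised to Affymetrix MoGene 1.0 ST arrays, which measure transcripts with probes along their length, with 1 array per animal. The groups held 4 animals each, with 12 weeks of diet in all of them. Gli2 heterozygous null mice were fed a high-fat diet (Het_HFD) or the control diet (Het_control). Wild-type mice were likewise fed the high-fat diet (WT_HFD) or the control diet (WT_control). Gli2 encodes a transcription factor of the hedgehog pathway, and the study set a weakened hedgehog signal against diet-induced fatty liver. The genotype label of the wild types names Gli1, where the series text speaks of Gli2 alone. The sources used here do not give the strain, sex, exact age, construction of the null allele or composition of the diets. Values are log2 levels, so a difference of 1 is a 2-fold change, and differences carry a standard error (SE) from the fit.

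Liver sinusoidal endothelial cells form the wall of the liver's capillaries. They have open pores and no continuous basement membrane, so plasma reaches the hepatocytes, and they are the body's main scavenger cells for soluble waste molecules and small immune complexes, which they take up through a set of endocytic receptors. In chronic liver injury, fatty liver included, these cells are known to lose their pores and some of these receptors, a change called capillarisation. Hedgehog signalling has been described as one of the pathways that take part in it.

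Promoter sequences were available in a RefSeq table (GRCm38.p6) for 6 of the 10 genes, Fcgr2b, Stab1, Stab2, Kdr, Clec4g and Tek, each reaching from 250 bases before to 50 after the annotated start. They are shown because most of these genes moved together between arrays, and because ETS and GATA factors are the families known to drive endothelial genes. The search covered both strands. For ETS factors it used ACCGGAA, which 3.72% of 32851 RefSeq promoters hold, then ACAGGAA, which 8.67% hold, and also AGGAAG, which 35.4% hold. For GATA factors it used AGATAA, which 11.2% hold. At least 1 ETS motif was found in 3 of the 6 promoters, Stab1, Stab2 and Clec4g, against 40.9% of all promoters, and the GATA motif in 1, Tek. Capitals mark the motif letters, and a motif on the other strand is in capitals as its reverse complement. In Clec4g the longer run in capitals holds 2 overlapping motifs. The first 2 promoters are of genes that varied little between arrays, the next of the gene with the largest difference between groups, and the last holds the GATA motif.
Stab1, chr14:31168592-31168891, minus strand: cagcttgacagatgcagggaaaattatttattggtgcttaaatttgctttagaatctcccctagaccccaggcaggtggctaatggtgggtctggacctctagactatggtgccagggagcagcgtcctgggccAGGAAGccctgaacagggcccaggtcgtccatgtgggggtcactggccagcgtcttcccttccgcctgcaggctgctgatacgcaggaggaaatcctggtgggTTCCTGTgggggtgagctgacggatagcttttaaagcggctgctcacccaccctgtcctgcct
Stab2, chr10:87007893-87008192, minus strand: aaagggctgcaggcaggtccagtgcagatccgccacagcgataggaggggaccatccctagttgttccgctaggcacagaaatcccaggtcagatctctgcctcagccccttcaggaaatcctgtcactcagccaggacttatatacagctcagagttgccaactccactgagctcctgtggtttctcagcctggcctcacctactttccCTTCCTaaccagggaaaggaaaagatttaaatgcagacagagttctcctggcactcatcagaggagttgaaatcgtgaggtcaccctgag
Clec4g, chr8:3720602-3720901, minus strand: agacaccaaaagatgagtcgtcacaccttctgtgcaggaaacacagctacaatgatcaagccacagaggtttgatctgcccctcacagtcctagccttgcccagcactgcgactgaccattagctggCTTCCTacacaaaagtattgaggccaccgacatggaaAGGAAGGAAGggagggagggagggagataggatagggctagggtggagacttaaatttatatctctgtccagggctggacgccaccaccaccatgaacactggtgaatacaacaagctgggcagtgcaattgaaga
Tek, chr4:94739039-94739338, plus strand: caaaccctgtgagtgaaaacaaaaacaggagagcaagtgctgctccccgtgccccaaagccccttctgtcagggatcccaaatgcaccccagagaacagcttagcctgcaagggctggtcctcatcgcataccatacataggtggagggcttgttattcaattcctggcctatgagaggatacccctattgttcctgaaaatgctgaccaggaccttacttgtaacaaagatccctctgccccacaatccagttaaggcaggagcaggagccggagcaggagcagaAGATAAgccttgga
Fcgr2b and Kdr held none of these letters. The motif is a match of letters, not a measured binding site. It was present in Stab1 and Stab2, which hardly varied, and in Clec4g, which varied widely.

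One array stood apart. Het_control 2 correlated with the other arrays at 0.961 to 0.979 across genes, whereas the other 15 correlated with each other at 0.990 or more. Its values were compressed, with an interquartile range of 1.95 against 2.40 to 2.60 elsewhere, and 27.2% of all genes had their lowest of 16 levels on it and 46% their highest. It read 8.14 for Gli2, against 7.40 to 7.61 on the others, so the Gli2 level on this probe set did not separate the genotypes. The main comparisons are given with and without it. The mean levels of the 10 marker genes lay between 8.98 and 12.06, all among the brighter 9969 of the genes. Hepatocyte markers such as albumin averaged 13.55 to 13.77 per array, so the samples read as whole liver with the marker genes present in every group. Levels of different probe sets are not compared with each other. In whole liver, fewer endothelial cells and less RNA per cell cannot be told apart.

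None of the 10 genes passed the test in any of the 7 comparisons (limma, adjusted p under 0.05 over all 19938 genes). On high-fat diet against control diet in heterozygotes 2.22% of all genes passed, or 0.873% without Het_control 2. Between genotypes on control diet, and between diets in wild type, 0% passed, and 0% and 0.015% without Het_control 2. Against this background the marker genes showed a pattern of values rather than of calls. Heterozygotes on control diet had the lowest group mean for 8 of the 10 genes, and the spread within that group came mostly from 2 of its 4 arrays. Without Het_control 2 the group was no longer lowest for Lyve1 (9.59, against 9.45 in Het_HFD) and Pecam1 (9.01, against 8.97 in WT_HFD). For Cdh5 it was then nearly level with WT_HFD, at 10.3514 against 10.3531.

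**Figure D1:**
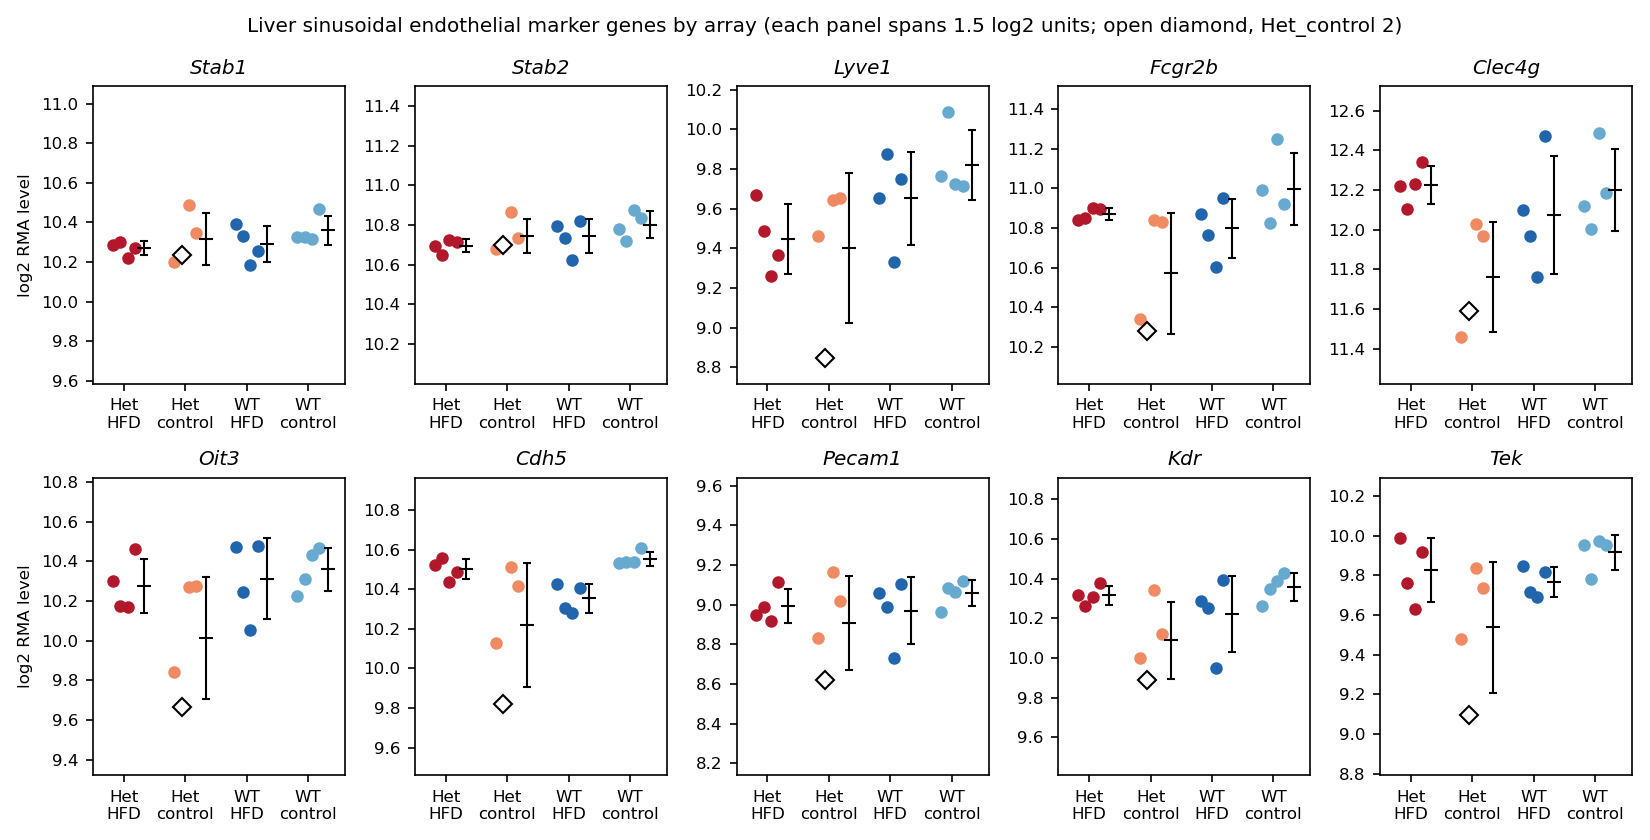
Log2 levels of the 10 marker genes on each array, by group, with the mean and SD of the 4 arrays beside the points (n = 4 per group). Each panel spans the same number of log2 units. Het_control 2 is the open diamond, and it is the lowest point for 7 genes, while Stab1 and Stab2 stay within 0.31 and 0.25 over all 16 arrays.

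Stab1 and Stab2 encode stabilin-1 and stabilin-2, large scavenger receptors that clear hyaluronan, modified lipoproteins and ageing plasma proteins from sinusoidal blood. Stab1 read 10.28, 10.30, 10.22 and 10.27 in Het_HFD, 10.20, 10.23, 10.49 and 10.35 in Het_control, 10.39, 10.33, 10.18 and 10.25 in WT_HFD, and 10.33, 10.33, 10.32 and 10.47 in WT_control. Stab2 read 10.70, 10.65, 10.72 and 10.72 in Het_HFD, 10.68, 10.70, 10.87 and 10.74 in Het_control, 10.79, 10.73, 10.63 and 10.82 in WT_HFD, and 10.78, 10.72, 10.88 and 10.84 in WT_control. For both genes the groups overlapped in each comparison of diet within a genotype and of genotype within a diet. Stab1 in Het_HFD lay below WT_control on every array (highest 10.302 against lowest 10.319). That pair differs in both genotype and diet, and its share over all genes was not counted. Between the lowest and the highest array Stab1 spanned 0.31 and Stab2 0.25, against 0.54 to 1.24 for the other 8 genes. Their SD within groups was 0.089 and 0.071, and 18.4% and 7.07% of all genes had a lower one, or 43.0% and 23.0% without Het_control 2. Of the 7 fitted comparisons with all 16 arrays, the largest of their differences was -0.07 (SE 0.07), for Stab1 in WT_HFD against WT_control. In heterozygotes on high-fat against control diet the 95% intervals ran from -0.20 to 0.10 for Stab1 and from -0.18 to 0.08 for Stab2. On control diet, heterozygotes against wild type, they ran from -0.19 to 0.11 and from -0.19 to 0.07.

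Clec4g encodes LSECtin, a C-type lectin of sinusoidal endothelium that binds glycans and activated T cells. It read 12.22, 12.10, 12.23 and 12.34 in Het_HFD, 11.46, 11.59, 12.03 and 11.97 in Het_control, 12.10, 11.97, 11.76 and 12.47 in WT_HFD, and 12.12, 12.00, 12.49 and 12.19 in WT_control. Every Het_HFD array lay above every Het_control array, as it did for 6.58% of all genes in this direction, while the wild-type groups overlapped. The diet difference in heterozygotes was 0.46 (SE 0.15, limma adjusted p = 0.0784), the largest of the 10 genes. Without Het_control 2 it was 0.41 (adjusted p = 0.171) and the groups stayed apart, as did those of 7.48% of all genes. On control diet heterozygotes differed from wild type by -0.44 (SE 0.15, adjusted p = 0.281), or -0.38 without Het_control 2. With the mean of both Clec4g probe sets the diet difference in heterozygotes was 0.15.

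Fcgr2b encodes the inhibitory Fc gamma receptor, which in liver sits mainly on sinusoidal endothelium and takes up small immune complexes. It read 10.84, 10.85, 10.90 and 10.90 in Het_HFD, 10.34, 10.28, 10.84 and 10.83 in Het_control, 10.87, 10.77, 10.60 and 10.95 in WT_HFD, and 10.99, 10.82, 11.25 and 10.92 in WT_control. Het_HFD arrays were nearly alike, with an SD of 0.03, while 2 Het_control arrays lay far below the other 2. That upper pair overlapped the Het_HFD arrays. The diet difference in heterozygotes was 0.30 (SE 0.12, limma adjusted p = 0.126), or 0.20 without Het_control 2. On control diet heterozygotes differed from wild type by -0.43 (SE 0.12, adjusted p = 0.279), or -0.33 without it.

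Lyve1 encodes a hyaluronan receptor shared by lymphatic vessels and sinusoidal endothelium. It read 9.67, 9.49, 9.26 and 9.36 in Het_HFD, 9.46, 8.85, 9.64 and 9.65 in Het_control, 9.65, 9.88, 9.33 and 9.75 in WT_HFD, and 9.76, 10.09, 9.72 and 9.71 in WT_control. Its pattern followed genotype more than diet. All 4 Het_control arrays lay below all 4 WT_control arrays, as they did for 2.1% of genes in this direction, and Het_HFD arrays were mostly below WT_HFD arrays. Over both diets the genotype difference was -0.31 (SE 0.11, limma adjusted p = 0.573, unadjusted p = 0.013), and 0.587% of all genes had a more negative one. Without Het_control 2 it was -0.22 (adjusted p = 0.740). The diet difference in heterozygotes was 0.04 (SE 0.16), or -0.14 without Het_control 2. In wild type it was -0.17 (SE 0.16), and over both genotypes -0.06 (SE 0.11), or -0.15 without Het_control 2. Het_control 2 at 8.85 was the lowest reading, and Lyve1 had the widest range of the 10 genes, 1.24.

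Oit3 encodes a secreted protein with a zona pellucida domain, made in mouse liver by sinusoidal endothelium. It read 10.30, 10.17, 10.17 and 10.46 in Het_HFD, 9.84, 9.67, 10.27 and 10.28 in Het_control, 10.47, 10.24, 10.06 and 10.48 in WT_HFD, and 10.23, 10.31, 10.43 and 10.47 in WT_control. Here too the first 2 Het_control arrays were the lowest of all, and the other 2 lay among the remaining groups. The diet difference in heterozygotes was 0.26 (SE 0.13, limma adjusted p = 0.172), or 0.15 without Het_control 2, and in wild type -0.05 (SE 0.13). On control diet the genotype difference was -0.35 (SE 0.13, adjusted p = 0.290), or -0.23 without Het_control 2.

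Cdh5 and Pecam1 encode the junction proteins VE-cadherin and CD31, which hold endothelial cells to each other in all vessels. Cdh5 read 10.52, 10.56, 10.44 and 10.49 in Het_HFD, 10.13, 9.82, 10.51 and 10.42 in Het_control, 10.42, 10.31, 10.28 and 10.40 in WT_HFD, and 10.53, 10.54, 10.54 and 10.61 in WT_control. WT_control arrays lay close together and above every Het_control and every WT_HFD array. Het_HFD arrays also lay above every WT_HFD array. Non-overlap of these kinds was seen in 2.1%, 5% and 2.18% of all genes. The diet difference was 0.28 in heterozygotes (SE 0.11, limma adjusted p = 0.110) and -0.20 in wild type (SE 0.11, adjusted p = 0.83). Without Het_control 2 the value in heterozygotes was 0.15 (adjusted p = 0.289), and that in wild type, where the same 8 arrays enter but the shared spread is smaller, had an adjusted p of 0.216. On control diet the genotype difference was -0.34 (SE 0.11, adjusted p = 0.279), or -0.20 without Het_control 2, and on high-fat diet 0.15 (SE 0.11).

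Pecam1 read 8.95, 8.99, 8.92 and 9.12 in Het_HFD, 8.83, 8.62, 9.16 and 9.02 in Het_control, 9.06, 8.99, 8.73 and 9.11 in WT_HFD, and 8.97, 9.09, 9.06 and 9.12 in WT_control. All groups overlapped, and the first 2 Het_control arrays and WT_HFD 3 were the 3 lowest. The diet difference in heterozygotes was 0.09 (SE 0.10), or -0.01 without Het_control 2. On control diet the genotype difference was -0.15 (SE 0.10, limma adjusted p = 0.399), or -0.05 without it.

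Kdr encodes the main signalling receptor for VEGF on endothelium, and Tek the angiopoietin receptor Tie2, which steadies vessels. Kdr read 10.32, 10.26, 10.31 and 10.38 in Het_HFD, 10.002, 9.89, 10.35 and 10.12 in Het_control, 10.29, 10.25, 9.95 and 10.39 in WT_HFD, and 10.26, 10.35, 10.39 and 10.43 in WT_control. Tek read 9.99, 9.76, 9.63 and 9.92 in Het_HFD, 9.48, 9.10, 9.84 and 9.74 in Het_control, 9.85, 9.72, 9.69 and 9.82 in WT_HFD, and 9.95, 9.78, 9.97 and 9.96 in WT_control. For both genes the first 2 Het_control arrays were low, and for Kdr WT_HFD 3 lay between them. Het_control 3 lay among the Het_HFD arrays for Kdr, and Het_control 3 and 4 did for Tek. The diet differences in heterozygotes were 0.23 for Kdr (SE 0.10, limma adjusted p = 0.133) and 0.29 for Tek (SE 0.12, adjusted p = 0.135). Without Het_control 2 they were 0.16 and 0.14. The genotype differences on control diet were -0.27 for Kdr (SE 0.10, adjusted p = 0.287) and -0.38 for Tek (SE 0.12, adjusted p = 0.280), or -0.20 and -0.23 without Het_control 2.

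**Figure D2:**
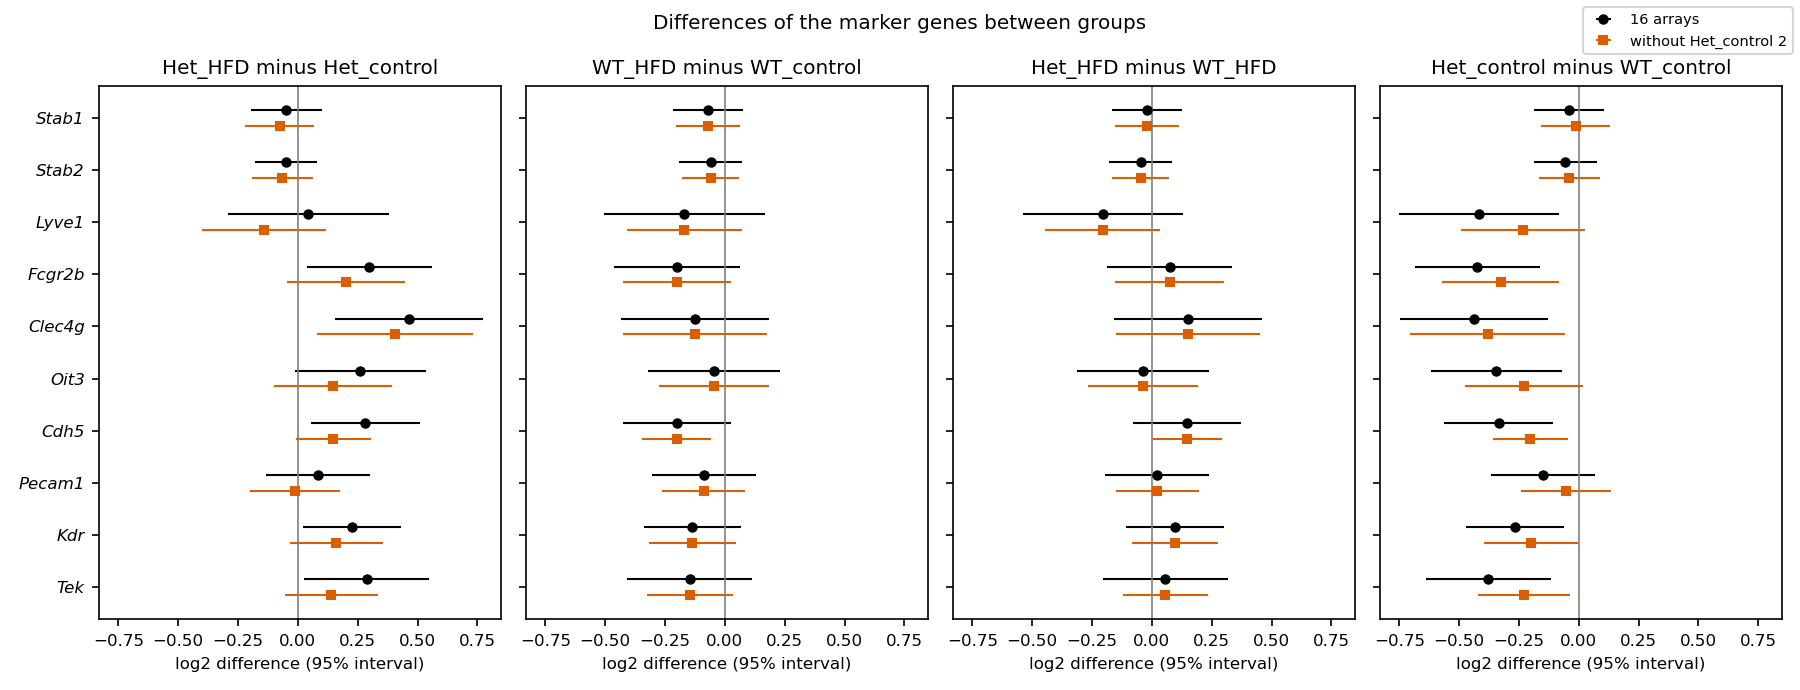
Log2 difference of each marker gene in 4 comparisons with its 95% interval from limma, over 16 arrays (black circles) and without Het_control 2 (orange squares). In heterozygotes most genes lie right of 0 on high-fat diet against control diet, and on control diet all 10 lie left of 0 in heterozygotes against wild type (8 of the 10 after a repeated quantile normalization). Stab1 and Stab2 stay near 0 in every panel.

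On high-fat against control diet in heterozygotes, 8 of the 10 genes were higher in value, with a median difference of 0.24. Clec4g, Fcgr2b, Tek, Cdh5, Oit3 and Kdr read 0.23 to 0.46 higher, Pecam1 and Lyve1 0.09 and 0.04 higher, and Stab1 and Stab2 -0.05 each. Over all genes the median was -0.05 and 40.5% were higher in value. Among the brighter 9969 genes, where the marker genes lie, the median was 0.07 and 64.5% were higher. An unadjusted p under 0.05 was reached by 5 of the 10, Clec4g, Cdh5, Fcgr2b, Kdr and Tek, all higher, against 13.9% of all genes in that direction. Without Het_control 2 the median was 0.14 and 6 of the 10 were higher, against 42.8% of all genes and 57.7% of the brighter 9969. Clec4g alone then kept an unadjusted limma p under 0.05, against 9.3% of all genes in that direction. Without Het_control 4, which was among the 4 lowest arrays for 1 of the 10 genes, limma called 3446 genes of the 19938 in this comparison, among them Cdh5, Fcgr2b and Clec4g. Leaving out any other single array of the 16 gave calls for none of the 10. With the number in the sample titles, whose meaning is not stated, as a random block, limma called 6938 genes, among them Clec4g, Cdh5, Fcgr2b, Kdr and Tek.

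In wild type, high-fat diet went with values that were lower for all 10 genes. The differences ran from -0.20 for Cdh5 and Fcgr2b to -0.05 for Oit3, with a median of -0.13, against -0.01 over all genes, of which 56% were lower. Among the brighter 9969 genes 41.1% were lower. None passed, the lowest adjusted p from limma being 0.83 for Cdh5. WT_HFD 3 was among the 4 lowest of the 16 arrays for all 10 genes. Without it the median was -0.04 and 1 of the 10 was higher in value. Limma called 0 genes in this comparison, and 1282, or 6.43%, had an unadjusted p under 0.05, none of them a marker gene. Without Het_control 2, whose absence changes only the error here, Cdh5 had an unadjusted limma p of 0.0093 (adjusted p = 0.216), against 6.6% of all genes lower at an unadjusted p under 0.05.

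On control diet, all 10 genes were lower in value in heterozygotes than in wild type, or 8 of the 10 after a repeated quantile normalization and 9 with array weights, with Stab1 and Stab2 turning sign. The median difference was -0.34. Clec4g, Fcgr2b, Lyve1, Tek, Oit3 and Cdh5 differed by -0.34 to -0.44, Kdr by -0.27 and Pecam1 by -0.15, while Stab2 and Stab1 differed by -0.06 and -0.04. Over all genes the median was 0.04 and 39.4% were lower in value. Among the brighter 9969, 61.2% were lower, or 50.5% without Het_control 2. With Het_control 2 left out, all 10 marker genes were still lower, against 43.8% of all genes, and their median was -0.22. An unadjusted p under 0.05 was reached by 7, against 6.73% of all genes in that direction, and without Het_control 2 by 5, against 3.56%. Limma called 0 of the 19938 genes here, and 3135 had an unadjusted p under 0.05. On high-fat diet the genotypes differed little. Of the 10 genes 6 were higher in heterozygotes and 4 lower, against 53.8% higher over all genes. The median was 0.04, and the ends were Clec4g and Cdh5 at 0.15 and Lyve1 at -0.21 (SE 0.16). Without Het_control 2, Cdh5 had an unadjusted limma p of 0.0464, against 4.67% of all genes higher at an unadjusted p under 0.05. In that comparison 0.00502% of all genes passed.

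Averaged over genotypes, the diet difference had a median of 0.04 over the 10 genes, with 6 higher in value. Without Het_control 2 the median was -0.01, with 4 higher. The shares higher were 40.4% and 41.5% of all genes, and 65.3% and 60.4% of the brighter 9969. In that comparison 1.86% of all genes passed. Averaged over diets, all 10 were lower in heterozygotes, or 9 after a repeated quantile normalization, against 38.6% of all genes. Of the brighter 9969 genes 58.6% were lower, or 49.5% without Het_control 2. The median of the 10 was -0.12, and -0.07 with Het_control 2 left out. In that comparison 0.00502% of all genes passed. The interaction is the diet difference in heterozygotes minus that in wild type. It was above 0 for all 10, or for 8 after a repeated quantile normalization or with array weights. The median was 0.34, against -0.03 over all genes, of which 42.5% were above 0. Of the brighter 9969 genes 60.7% were above 0, or 50.9% without Het_control 2. Among the 10, Clec4g had the largest value, 0.59 (SE 0.21, limma adjusted p = 0.475), followed by Fcgr2b at 0.50, Cdh5 at 0.48 (adjusted p = 0.424), Tek at 0.43 and Kdr at 0.36. These 5 had an unadjusted p under 0.05, against 4.16% of all genes in that direction. Limma called 0% of genes for the interaction, with 1621 at an unadjusted p under 0.05 in either direction, so a different diet response of the genotypes was not shown for any of the 10. Without Het_control 2 the median was 0.24, 8 of the 10 were above 0, against 47.9% of all genes, and 5 had an unadjusted p under 0.05, against 4.5%. These comparisons share arrays, so their directions are not independent of each other.

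**Figure D3:**
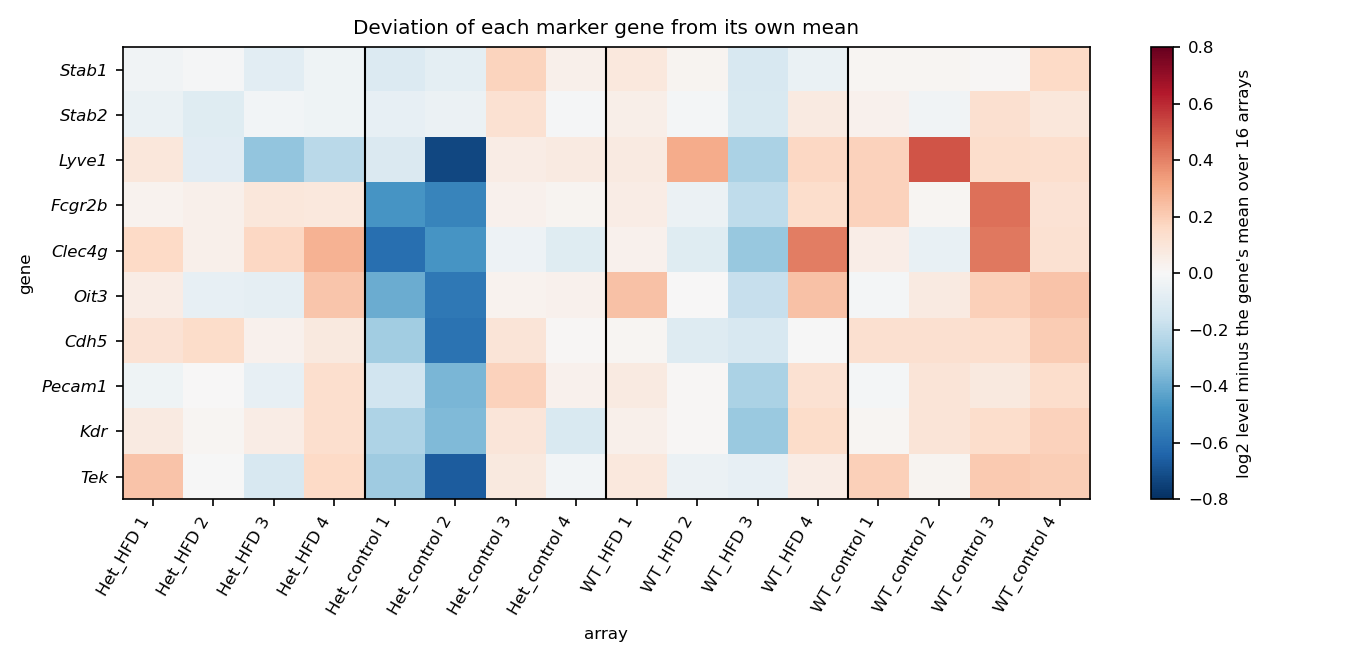
Deviation of each marker gene, in log2 units, from its own mean over the 16 arrays (rows, genes; columns, arrays by group). Het_control 1, Het_control 2 and WT_HFD 3 are blue in nearly all rows. The top 2 rows, Stab1 and Stab2, are pale throughout.

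The pattern by group rested on few arrays. Het_control 2 had the lowest of 16 levels for 7 of the 10 genes. Het_control 1 was among the 4 lowest arrays for 9 genes and the lowest for Clec4g, and WT_HFD 3 was the lowest for Stab1 and Stab2. The median deviation of the 10 genes from their own means was -0.50 on Het_control 2, -0.26 on Het_control 1 and -0.19 on WT_HFD 3. On Het_control 1 and WT_HFD 3 the brighter 9969 genes deviated by a median of only -0.001 and 0.005, so the low readings there were not shared by bright genes at large. On Het_control 2 these genes deviated by -0.18 and the dimmer genes by 0.32. The other 2 Het_control arrays had median deviations of 0.09 and 0.01, within the range of the wild-type arrays. Without Het_control 1 in place of Het_control 2, the median difference was 0.20 for diet in heterozygotes and -0.30 for genotype on control diet.

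The genes varied together to unequal degrees. Over the 15 arrays without Het_control 2, each gene was set against the mean of the other 9. Pearson's r was 0.89 for Kdr, 0.88 for Oit3, 0.85 for Fcgr2b, 0.82 for Pecam1, 0.81 for Tek, 0.80 for Cdh5, 0.77 for Clec4g, 0.71 for Stab2, 0.57 for Stab1 and 0.38 for Lyve1. The points are arrays that share group differences and normalisation, so these are descriptions. Among all other genes, the 5 closest to the mean of the 10 over those arrays were Plxnc1 (r = 0.93), Pde2a (0.92), Eng (0.91), Cav2 (0.91) and Aqp1 (0.90). Eng encodes endoglin, an endothelial co-receptor for TGF-beta and BMP ligands, Cav2 caveolin-2, Aqp1 a water channel of endothelium and bile ducts, Pde2a a cyclic nucleotide phosphodiesterase and Plxnc1 a semaphorin receptor. With Het_control 2 included their r was 0.74 to 0.93, lowest for Eng.

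Other genes of sinusoidal endothelium mostly had values in the same directions. They too were listed with earlier results of these data known, so this is a description and not a separate test. Of 12 such genes outside the 10, including receptors and secreted factors, 10 were higher and 2 lower in value on high-fat diet in heterozygotes, with a median of 0.19, or 0.12 without Het_control 2. On control diet 11 of the 12 read lower in heterozygotes than in wild type, with a median of -0.29, or -0.18. None passed. Clec1b, a C-type lectin best known from platelets and also found on mouse sinusoidal endothelium, had the highest diet difference, 0.70 (SE 0.21, limma adjusted p = 0.0718), and differed by -0.63 between genotypes on control diet. Without Het_control 2 it read 0.48 (adjusted p = 0.170) and -0.42. F8, the clotting factor VIII gene expressed in liver endothelium, read 0.44 and -0.47 in these comparisons, or 0.22 and -0.25 without Het_control 2. The sinusoid and lymph node lectin gene Cd209b was at the other end, at -0.11 and 0.06.

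A further list of genes of endothelium in general had smaller median differences. Cdh5, Pecam1, Kdr and Tek are not in it, as they are among the 10. For diet in heterozygotes these differed by 0.28, 0.09, 0.23 and 0.29. Of the 22 listed genes, 14 were higher on high-fat diet in heterozygotes, with a median of 0.03, or 12 without Het_control 2, with a median of 0.04. On control diet 17 of the 22 read lower in heterozygotes than in wild type, with a median of -0.09, or 19 without Het_control 2, with a median of -0.08. Adgrl4, an adhesion receptor of endothelium, had the largest values, 0.53 (SE 0.17, limma adjusted p = 0.0825) and -0.59 (SE 0.17, adjusted p = 0.279). Without Het_control 2 they were 0.32 (adjusted p = 0.186) and -0.38. Ets1, a transcription factor gene, was at the other end with -0.15 and 0.08. No gene of the list passed with all 16 arrays. Without Het_control 2 the transcription factor gene Sox7 passed in heterozygotes (0.29, adjusted p = 0.0266, against 0.16 and adjusted p = 0.247 with it). Of 8 genes of larger or capillarised vessels 4 were higher and 4 lower on high-fat diet in heterozygotes, with a median of 0.02 and none past the test. Plvap, of fenestral diaphragms, read 0.19 (SE 0.06, adjusted p = 0.0914), Emcn, a sialomucin of veins and capillaries, 0.38, and the endothelin gene Edn1 -0.19. Without Het_control 2 Plvap read 0.17, Emcn 0.23 and Edn1 -0.049. On control diet 4 of the 8 read higher and 4 lower in heterozygotes than in wild type, with a median of 0.02. Without Het_control 2, 3 read higher and 5 lower, with a median of -0.02. Cd34, a sialomucin of continuous endothelium, was among the lower ones with all 16 arrays, at -0.28 (SE 0.07, limma adjusted p = 0.279).

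Among 5 measured genes of central vein endothelium and its zonating signals, Thbd fell on high-fat diet in heterozygotes. Thrombomodulin, its product, checks clotting on the endothelial surface. The difference was -0.32 (SE 0.08, limma adjusted p = 0.0451), and without Het_control 2 it was -0.25 and no longer passed (adjusted p = 0.0672). Rspo3, a Wnt amplifier secreted by central vein endothelium, read 0.11 (SE 0.09), or 0.055 without Het_control 2. Of 10 VEGF and angiopoietin ligands and partners none passed for diet in heterozygotes, and 8 were lower and 2 higher in value, with a median of -0.02. Without Het_control 2, 6 were lower and 4 higher, with a median of -0.01. Vegfa, the main ligand of Kdr, read -0.25 (SE 0.07, adjusted p = 0.0678), and Nrp2, a VEGF co-receptor, 0.26 (SE 0.08, adjusted p = 0.0641). Nrp2 read -0.27 between genotypes on control diet (limma adjusted p = 0.279), where 5 of the 10 were higher and 5 lower. Without Het_control 2 Vegfa read -0.18 and Nrp2 0.19 for diet in heterozygotes, and Nrp2 -0.19 for genotype.

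**Figure D4:**
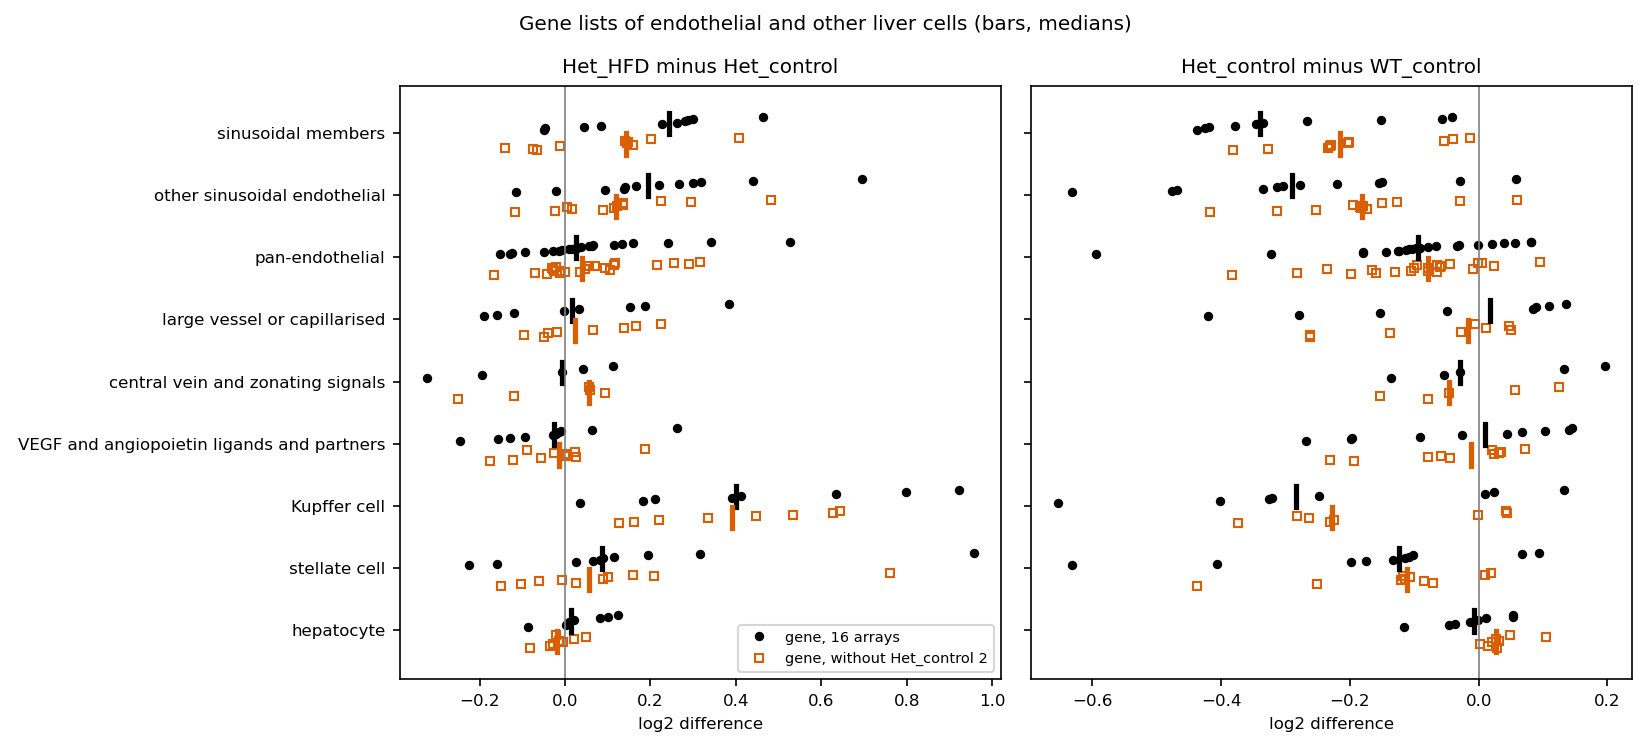
Log2 differences of the genes of each list on high-fat against control diet in heterozygotes (left) and in heterozygotes against wild type on control diet (right), over 16 arrays (black) and without Het_control 2 (orange), with the list medians as bars. Over 16 arrays, most genes of the 2 sinusoidal lists and all 8 of the Kupffer cell list lie right of 0 on the left. So do 8 of 10 stellate cell genes and 14 of 22 genes of endothelium in general. On the right most genes of all these lists lie left of 0, while hepatocyte genes stay near 0.

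Markers of Kupffer cells, the macrophages of the sinusoid, were also measured. All 8 were higher in value on high-fat diet in heterozygotes, with a median of 0.40, or 0.39 without Het_control 2. Vsig4, a complement receptor, rose by 0.92 (SE 0.21, limma adjusted p = 0.0415), the macrophage surface gene Adgre1 by 0.80 (SE 0.20, adjusted p = 0.0492) and the growth factor receptor gene Csf1r by 0.63 (SE 0.14, adjusted p = 0.0364). Marco, a scavenger receptor, had the lowest value, 0.04, or 0.13 without Het_control 2. Without Het_control 2 Vsig4 alone passed (0.64, adjusted p = 0.0481). On control diet 5 of the 8 read lower and 3 higher in heterozygotes than in wild type, with a median of -0.28, or -0.23 without Het_control 2. On high-fat diet all 8 read higher in heterozygotes, with a median of 0.25, whereas the median of the 10 endothelial genes was 0.04. The mean level of the 8 genes was 10.19 to 10.53 in Het_HFD, 9.70 to 10.13 in Het_control, 9.81 to 10.43 in WT_HFD and 10.02 to 10.18 in WT_control. The mean level of the 10 endothelial marker genes was 10.28 to 10.40, 9.87 to 10.40, 10.12 to 10.44 and 10.39 to 10.51 in the same groups. Het_HFD and Het_control thus did not overlap for the Kupffer cell mean, and did for the endothelial mean. Among single genes 6.58% did not overlap in this direction, and no such share was computed for means of lists. WT_HFD 3, low for the endothelial genes, was not low for Kupffer cell genes, at 0.06 above the mean of the 16 arrays, and Het_control 4 was low for Kupffer cell genes, at -0.29, and not for the endothelial genes, at -0.004. Fcgr2b is also expressed by macrophages and B cells, and the part of these cells in its level was not tested.

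Of 10 stellate cell genes 8 were higher and 2 lower in value on high-fat diet in heterozygotes, with a median of 0.09. Without Het_control 2, 6 were higher and 4 lower, with a median of 0.06. Lrat, which stores retinol as esters, rose by 0.96 (SE 0.23, limma adjusted p = 0.0465), or 0.76 without Het_control 2 (adjusted p = 0.0886). Col1a1 read -0.23, or -0.15 without that array. The mean of the stellate genes was 10.19 to 10.33 in Het_HFD, 9.99 to 10.24 in Het_control, 10.20 to 10.44 in WT_HFD and 10.25 to 10.36 in WT_control. It was lowest on Het_control 2 and Het_control 1, at -0.26 and -0.19 from the mean of all arrays, the same arrays that were low for the endothelial genes. Hepatocyte genes deviated by -0.15 on Het_control 2 and by 0.001 on Het_control 1. Pancreas genes read 0.37 above their mean on Het_control 2, where the dimmer genes at large deviated by a median of 0.32. The pancreas genes read 0.07 above their mean on Het_control 1, and also 0.07 on Het_control 4. Their mean level was 7.52 to 7.71 in Het_HFD, 7.68 to 8.03 in Het_control, 7.56 to 7.68 in WT_HFD and 7.61 to 7.65 in WT_control. The part of the makeup of the tissue samples in the low endothelial readings was not tested.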

How the data were processed

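Expression was measured in liver of 16 mice, 4 in each of 4 groups, with 1 array per animal. The deposited values are log2 levels, 1 for each probe set. Per the submitters' processing notes, the authors computed them by RMA in Affymetrix Expression Console, with no version stated. RMA equalises the distribution of probe intensities over the arrays, so a shift of all transcripts would be removed. Of 35556 probe sets, 21789 carry 1 gene symbol, 1621 several and 12146 none, and those with several or none were left out. A RefSeq table (GRCm38.p6) gave current symbols for 19856 of 19938 genes. Where a gene had more than 1 probe set, as 999 did, the one with the highest mean was used. The tests were run in limma 3.58.1 under R 4.3.3, with lmFit and eBayes, a mean for each of 4 groups and 7 contrasts. The Benjamini-Hochberg adjustment covered all 19938 genes of each contrast, and an adjusted p under 0.05 counts as passing. The procedure was tested on simulated data.

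The 10 members and all gene lists were chosen with earlier results of these data known. All 10 members are named. From the endothelial, VEGF and angiopoietin, Kupffer cell and stellate cell lists the text names the gene with the smallest p of a comparison it discusses, those with the lowest and highest difference, and called genes; F8 was named after its values were seen. Of the listed genes, Selp, Spp1, Gp1bb, Hba-a1, Hbb-b1, Ccl21a, Pnlip and Amy2a5 were not analysed here. Marker lists of bile duct, B, T and NK cells, platelets, red cells, lymphatic endothelium and pancreas served as further checks. Replicate numbers only name arrays and pair none of them. The p-values treat the animals as independent, and 4 arrays per group limit the precision.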

Additional observations from a re-analysis of the deposited data

Results flagged for a closer look

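Among 40 groups of 4 arrays (10 genes in 4 groups), 4 held an array set far apart from the other 3 by Dixon's criterion, where chance gives about 1 in 20. All 4 were in WT_control. Cdh5 read 10.61 in WT_control 4, against 10.53 to 10.54 on the other 3 arrays. Stab1 read 10.47 in WT_control 4, against 10.32 to 10.33. Lyve1 read 10.09 in WT_control 2, against 9.71 to 9.76. Tek read 9.78 in WT_control 2, against 9.95 to 9.97. Het_control 2, the array that stood apart over all genes, was not among them. Het_control 1 was low as well for most of the genes.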

How the results depend on the processing

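No marker gene was called in any of the 7 comparisons over all alternatives run, with exceptions for diet in heterozygotes. There 5 were called when the number in the sample titles was a random block (correlation -0.37, so that arrays of 1 number were less alike than others), and 0 to 3 when each array was left out in turn; the cause was not tested. No paired analysis was possible because the groups share too few numbers in the labels: of the 11 numbers in the sample titles, 1 occurs on both diets and 0 in both genotypes.

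Some differences near 0 turned sign. With array weights these were Lyve1 (-0.12) and Pecam1 (-0.012) for diet in heterozygotes, Stab1 (0.0035) for genotype on control diet, Cdh5 (-0.026) for diet over both genotypes, and Stab1 (-0.051) and Stab2 (-0.038) for the interaction. With a repeated quantile normalization they were Stab1 (0.022) and Stab2 (0.011) for genotype on control diet, Cdh5 (-0.014), Fcgr2b (-0.0065) and Kdr (-0.0082) for diet over both genotypes, Stab1 (0.0037) for genotype over both diets, and Stab1 (-0.036) and Stab2 (-0.048) for the interaction. With the random block Stab2 read -0.00096 for the interaction. Leaving out 1 array, the ranges that crossed 0 were, for diet in heterozygotes, -0.14 to 0.13 for Lyve1, -0.011 to 0.17 for Pecam1 and -0.087 to 0.0094 for Stab1, and for diet in wild type -0.10 to 0.039 for Oit3. For genotype on high-fat diet they were -0.12 to 0.018 for Oit3, -0.055 to 0.014 for Stab1 and -0.057 to 0.068 for Pecam1. For diet over both genotypes they were -0.050 to 0.041 for Pecam1, -0.026 to 0.089 for Cdh5 and -0.0035 to 0.12 for Tek, and for the interaction -0.030 to 0.050 for Stab2 and -0.017 to 0.079 for Stab1. The cause was not tested.

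Counts over all genes varied widely. Diet in heterozygotes gave 442 calls (300 higher, 142 lower), against 6938 (2896 higher, 4042 lower) with the random block, 1067 with array weights, 7 with the 2 groups alone and 45 to 3446 leaving out 1 array. Diet in wild type gave 0, against 40, 219 and 6 with those 3 settings and 0 to 7 leaving out 1 array. Diet over both genotypes gave 371, against 3703 with the block, 2105 with array weights and 104 to 1754 leaving out 1 array. Genotype on control diet gave 0, against 2 with the block and 0 to 18 leaving out 1 array. On high-fat diet it gave 1, against 3 with the block, 3 with array weights and 2 with the 2 groups alone, and over both diets 1, against 7 with the block. The interaction gave 0, against 2 with the block and 1 with array weights. After a repeated quantile normalization the median of the 10 genes was 0.17 for diet in heterozygotes and -0.28 for genotype on control diet.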

Other observations

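The markers of other cell types did not share 1 pattern over the arrays. Bile duct genes averaged 7.81 to 7.97 in Het_HFD, 8.04 to 8.24 in Het_control, 7.84 to 8.01 in WT_HFD and 7.89 to 8.12 in WT_control. The heterozygous groups thus did not overlap, as 7.15% of single genes did not in that direction, which was opposite to that of the endothelial genes. T and NK cell genes averaged 7.29 to 7.51 in Het_HFD, 7.26 to 7.60 in Het_control, 7.16 to 7.27 in WT_HFD and 7.36 to 7.46 in WT_control. Lymphatic endothelial genes, of which Prox1 is also made by hepatocytes, averaged 9.65 to 9.86, 9.66 to 10.02, 9.68 to 9.88 and 9.67 to 9.94 in the same groups, which overlapped throughout. The 4 B cell genes measured averaged 7.38 to 7.53 in Het_HFD, 7.18 to 7.57 in Het_control, 7.10 to 7.33 in WT_HFD and 7.39 to 7.61 in WT_control. All 4 read higher on high-fat diet in heterozygotes and lower in wild type. The WT_HFD and WT_control means did not overlap, as 5% of single genes did not in that direction. All 4 read lower in heterozygotes on control diet, and their part in the Fcgr2b level was not tested. Platelet genes ranged from 7.74 to 8.07 and red cell genes from 8.65 to 8.97.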
